A study of Mus musculus with 36 samples.

Results

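Regulatory macrophages (Mreg) that had received LPS were compared with Mreg that had not, on 3 arrays each, so that 6 of the 36 arrays of the series carried the comparison. All were mouse cells grown from bone marrow monocytes that had been sorted as CD11b+ Ly6C+ Ly6G-. Both groups spent 7 days in medium with 10% FCS, 10% human AB serum and 5 ng/ml M-CSF and had 25 ng/ml IFN-γ for the last 24 h. The Mreg + LPS group also had LPS for those 24 h at 100 µg/ml as labelled. A further 6 arrays showed the same addition in another culture: M1 macrophages had 25 ng/ml IFN-γ with 100 µg/ml LPS and IFN-γ macrophages had 25 ng/ml IFN-γ alone, both after growth in 20 ng/ml M-CSF and FCS without human serum. The samples were chosen by their labels, with no measured value used. Strain, sex and age of the mice are not given in the sources used here. Whether the 3 arrays stand for different mice or cultures is not in the labels, so the p-values cover the spread among arrays and nothing beyond it.

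LPS is the lipid-bearing sugar of the outer membrane of Gram-negative bacteria. On macrophages it is handed by CD14 to the receptor TLR4 with its partner MD-2. TLR4 signals through 2 adaptor arms: MyD88 leads to NF-κB and inflammatory cytokines, and TRIF leads to IRF3, interferon-β and then, through the interferon receptor, to interferon-stimulated genes. Mreg are macrophages studied for their capacity to hold back T cell responses, and the comparison shows how such cells, already exposed to IFN-γ, respond to a bacterial product.

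Levels below are log2 intensities relative to the 75th percentile of the array, and 1 unit is a 2-fold step. They can be set against each other for the same gene only, since probes differ in brightness. All 10 macrophage markers were above background in both groups, with a summed level of 1701 to 1969 in Mreg + LPS and of 1106 to 1132 in Mreg. Of the T and NK cell markers 7 of 10 were below background in both groups, among them Cd3d, Cd3g, Cd8a and Nkg7. Another 3 were above background on every array, among them Cd3e and Lck. Cd3e averaged −1.35 in Mreg + LPS and −2.58 in Mreg, and Lck −0.90 and −3.115. In the test below, 3 of the 10 were called higher and 0 lower, against 31.6% and 25.7% of all genes. The sum over all 10 was 0.865 to 1.26 in Mreg + LPS, against 0.288 to 0.53 in Mreg. The B cell marker Ms4a1 (CD20) and the plasma cell marker Jchain were below background in both groups. The other 4 of 6 tested were above background on every array, among them Cd22, called higher with LPS, and Cd79b, called lower. The summed B and plasma cell level was 48.3 to 64.4 in Mreg + LPS and 10.1 to 19.5 in Mreg, carried by Blnk, a signalling adaptor. The part of these cells in the results was not tested. Since RNA came from whole cultures, fewer cells of a type and less RNA per cell cannot be told apart.

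Limma called 10082 of 17585 genes (57.3%) at an adjusted p below 0.05, 5564 higher (31.6%) and 4518 lower (25.7%) in Mreg + LPS. At least 2-fold changes numbered 2261 higher (12.9%) and 2469 lower (14%). Of all calls, 98.9% had the same direction on each of the 3 slides that held both groups, a share taken among genes called on those same arrays. The 75th percentile of raw signal was lower in Mreg + LPS, at 345.2, 338.2 and 364.5, against 560.9, 466.8 and 607.5 in Mreg. The median gene stood 0.16 log2 higher under the scaling used here, and at −0.02 under quantile normalization and −0.47 with no scaling. The share of calls that were higher, 55.2%, was 45.1% under quantile normalization, 45.6% in the authors' table and 18.1% with no scaling. Gene groups are given below mainly by their 2-fold calls. Their counts are to be set against the shares of all genes given above. Within a group arrays correlated at 0.984 or more, and between groups at 0.958 or less. On every slide the 2 groups sat in the same 2 positions, so array position and group cannot be told apart.

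**Figure D1:**
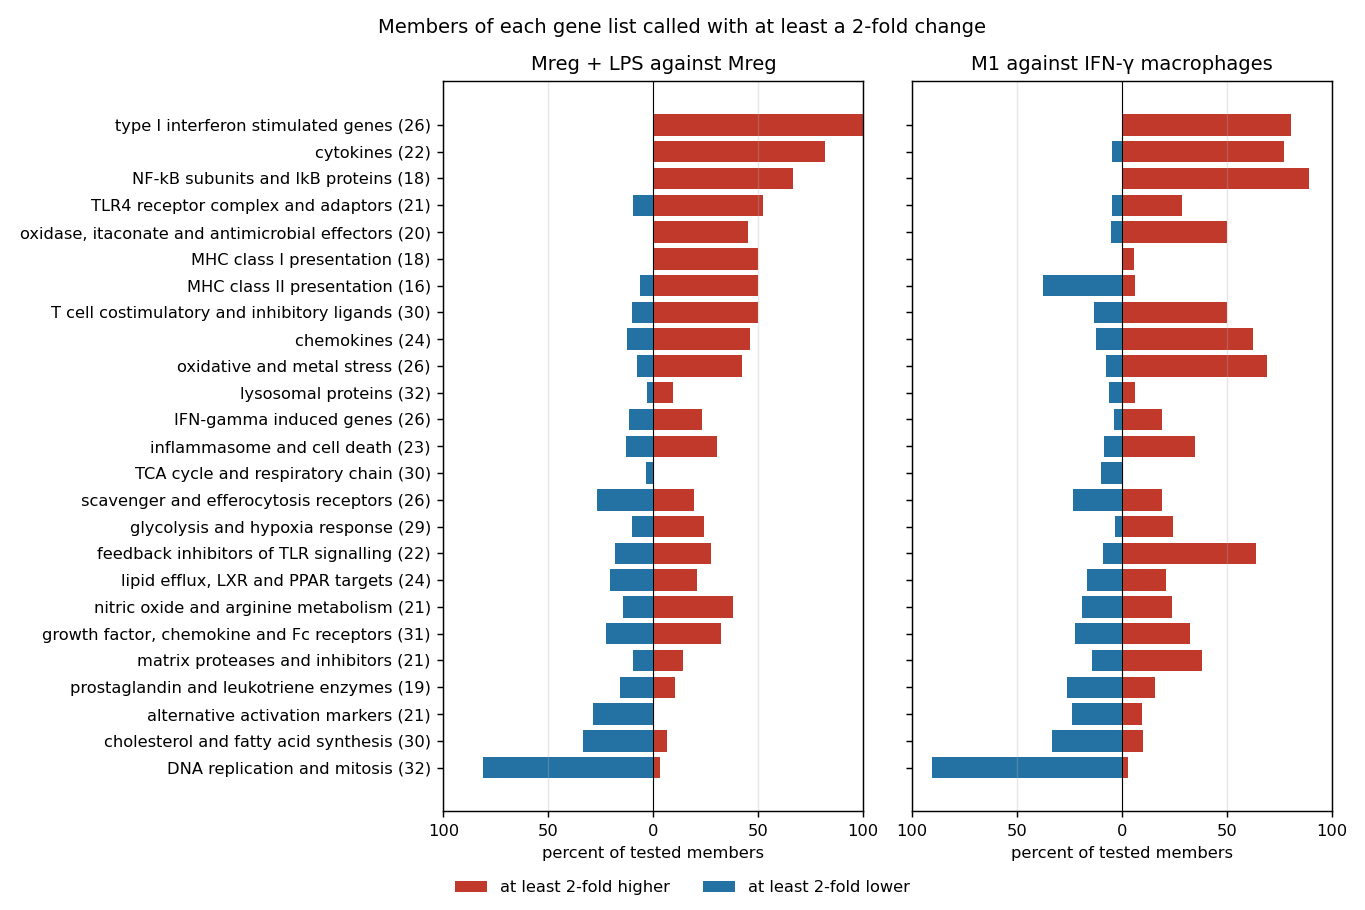
Share of the tested members of each gene list called with at least a 2-fold change, to the right (red) higher and to the left (blue) lower, in Mreg + LPS against Mreg (left panel) and in M1 against IFN-γ macrophages (right panel). The number in brackets is the number of members tested, and lists are ordered by their median log2 change in Mreg. Type I interferon stimulated genes fill the bar on the right in Mreg (26 of 26) and DNA replication genes fill most of the left (26 of 32). Over all genes the shares are 12.9% higher and 14% lower in Mreg.

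The largest rise was that of Ccl5 (RANTES), a chemokine that draws T cells and monocytes, read by a probe on chromosome 11 from 83341989 to 83342048 of mm8, minus strand. Its level was 10.05, 9.80 and 9.83 in Mreg + LPS, against 0.67, 0.65 and −1.05 in Mreg. Every Mreg + LPS array lay above every Mreg array, and the rise was 895-fold (log2 9.81 ± 0.75 SE, adjusted p = 1.8e-11). Spic, a transcription factor of iron-recycling macrophages, read 4.75, 3.93 and 5.08 in Mreg + LPS, against −4.25, −4.50 and −4.02 in Mreg. It rose 460.5-fold (adjusted p = 2.5e-11), with tight and separate groups. Saa3, an acute-phase serum amyloid, read 5.16, 4.86 and 6.21 in Mreg + LPS and −3.27, −1.86 and −5.12 in Mreg. The Mreg arrays spread over more than 3 units, and the groups were still apart (454-fold, adjusted p = 3.8e-10). Hamp, which encodes hepcidin, the peptide that closes the iron exporter ferroportin, read 1.96, 0.27 and 0.45 in Mreg + LPS. On none of the 3 Mreg arrays was it well above background, so the rise is given as at least 91.8-fold (adjusted p of the fitted difference = 1.0e-16). Such bounds set the dim group, array by array, at the dimmest probe that still passed as well above background. The fitted SE of Hamp, 0.335 log2, pools the spread of all 12 groups, and of these only Mreg + LPS had Hamp well above background. The SD of Hamp was 0.93 in Mreg + LPS and 0.22 in Mreg.

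The complement component C3 read 10.18, 9.29 and 9.79 in Mreg + LPS, against 2.80, 1.07 and 1.11 in Mreg. That is a 274-fold rise (adjusted p = 9.3e-15). Clec4e encodes Mincle, a lectin receptor for mycobacterial glycolipid, and read 8.27, 7.73 and 8.09 in Mreg + LPS and 0.27, −0.07 and −0.10 in Mreg. All 3 LPS arrays stood near 8 units above the Mreg arrays, a 256-fold rise. The sugar transporter gene Slc2a6 rose 169-fold, Cst7, an inhibitor of lysosomal cathepsins, 165-fold, and Ubd, a ubiquitin-like modifier, 163-fold (adjusted p at or below 2.7e-09 in each). The plot of levels on each array shows the 10 largest rises and falls.

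**Figure D2:**
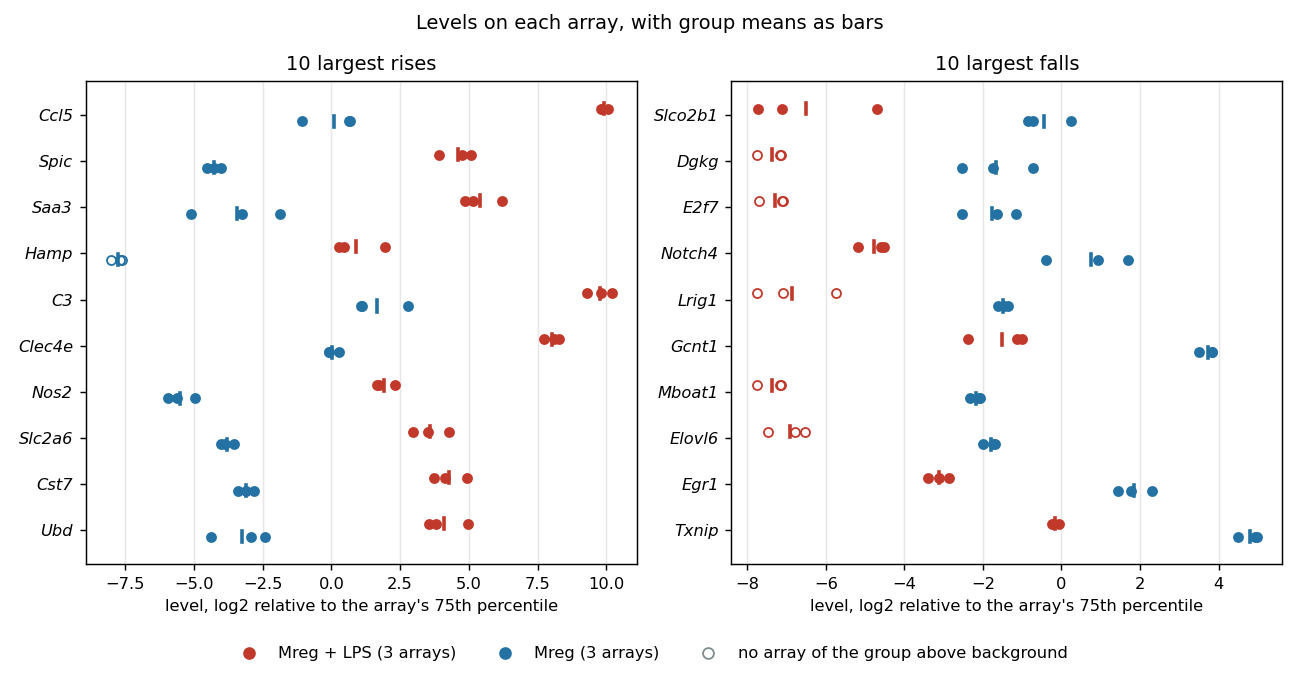
Levels of the genes with the 10 largest rises (left panel) and the 10 largest falls (right panel) among named genes, on each of 3 arrays of Mreg + LPS (red, upper row of each gene) and of Mreg (blue, lower row), in log2 relative to the 75th percentile of the array. Upright bars are group means, and open circles mark groups in which no array was well above background. The groups do not overlap in any of the 20 genes, as the choice of genes required. Ccl5 lies between 9.80 and 10.05 in Mreg + LPS and at or below 0.67 in Mreg.

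The list of the TLR4 receptor complex and its adaptors also holds Tlr7, which is neither. Of its 21 genes 13 rose and 3 fell, 11 and 2 of them at least 2-fold, against 12.9% and 14% of all genes. The median of the list was 1.11 log2. Tlr4 itself, the LPS receptor (chromosome 4, 66329051 to 66329109 of mm8, plus strand), read −1.30, −0.68 and −0.17 in Mreg + LPS, against 2.50, 2.09 and 2.65 in Mreg. It fell 8.75-fold (log2 −3.13 ± 0.20 SE, adjusted p = 6.3e-13), with no overlap. Its co-receptor Cd14 moved the other way, at 4.63, 4.25 and 4.06 in Mreg + LPS and 1.75, 2.05 and 1.66 in Mreg (5.63-fold higher, adjusted p = 1.4e-06). Tlr7, an endosomal sensor of single-stranded RNA, read 5.28, 4.44 and 4.66 in Mreg + LPS, against 1.26, 1.74 and 1.82 in Mreg. It rose 9.08-fold (adjusted p = 3.1e-12). Tirap, which brings MyD88 to TLR4, was picked out after its values were seen. It read −1.40, −0.27 and −0.54 in Mreg + LPS and 0.48, 0.39 and 0.66 in Mreg, and was lower by a log2 difference of −1.25 (adjusted p = 3.8e-07).

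NF-κB subunits, IκB proteins and their partners rose in 14 of 18 cases and fell in none, 12 of them at least 2-fold (median 1.82). Traf1, an adaptor of TNF-family receptors, read 5.47, 4.57 and 4.93 in Mreg + LPS, against −1.47, −1.96 and −1.64 in Mreg. The rise was 102-fold (log2 6.68 ± 0.24 SE, adjusted p = 6.5e-17), with the groups far apart. Nfkb2, the precursor of the p52 subunit, read 4.37, 4.08 and 3.71 in Mreg + LPS and 0.78, 0.89 and 0.57 in Mreg, a 9.89-fold rise. Relb, the partner of p52, read 5.51, 4.72 and 4.98 in Mreg + LPS, against 1.37 and 1.06 on the 2 Mreg arrays with a usable spot, and rose 14.5-fold (adjusted p = 1.8e-13). Under quantile normalization the counts did not move, 1 member fell in the authors' table, and 12 rose and 4 fell with no scaling.

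Feedback inhibitors of this pathway were split, with 8 of 22 higher and 6 lower, close to the shares over all genes (31.6% and 25.7%). Their median was 0.14 log2, −0.01 with dim groups set at their bound and −0.11 under quantile normalization. Gadd45b, a stress-induced regulator of MAP kinase signalling, read 7.81, 6.75 and 7.33 in Mreg + LPS, against 1.64, 1.94 and 2.03 in Mreg (43-fold higher, adjusted p = 2.1e-15). Zc3h12a, the RNase Regnase-1 that cuts cytokine messages, read 0.04, 0.43 and 0.58 in Mreg + LPS and −2.91, −2.98 and −2.53 in Mreg, and rose 8.93-fold. Tnip1, a partner of the ubiquitin editor A20, rose 7.41-fold. Picked out after their values were seen, Dusp2, a MAP kinase phosphatase, and Socs1, an inhibitor of JAK kinases, were lower. Dusp2 read 0.28, 0.24 and 0.42 in Mreg + LPS, against 2.75, 2.47 and 2.31 in Mreg (4.58-fold lower, adjusted p = 9.0e-08). Socs1 read 4.46, 3.06 and 3.71 in Mreg + LPS, against 5.96, 4.05 and 4.50 in Mreg. Its groups overlapped, and its adjusted p of 0.013 was 0.11 without Mreg + LPS array 2, 0.195 without Mreg array 1 and 0.164 in a fit of those groups alone.

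Cytokine genes rose in 19 of 22 cases, 18 at least 2-fold, and fell in 1, with a median of 2.43 log2 (2.24 with dim groups set at their bound). The list had 26 genes, of which 25 had a probe and 22 were bright enough on any 3 arrays to be tested. Il12b, the p40 subunit shared by IL-12 and IL-23, read 0.85, −1.20 and −2.03 in Mreg + LPS and was below background on every Mreg array. Its rise was at least 28.5-fold (adjusted p = 1.2e-10), and Mreg + LPS array 1 was the highest by about 2 units. Ifnb1, interferon-β, read 0.07, −0.77 and −0.53 in Mreg + LPS, against −4.85, −7.54 and −7.92 in Mreg. With 1 of the 3 Mreg arrays above background the rise was 82-fold, which rests in part on signal near background (adjusted p = 5.7e-11). Il1a and Il1b, the 2 forms of interleukin-1, rose 64-fold and 33.1-fold, again with 1 of 3 Mreg arrays above background. Il6, a cytokine that drives the acute-phase response, read −2.99, −3.01 and −4.02 in Mreg + LPS and rose at least 4.88-fold from below background. Normexp background correction, used as an alternative, added an offset of 50 to every spot, which shrinks log2 differences of dim genes. Under normexp the log2 rises of Il12b, Ifnb1, Il1a, Il1b and Il6 were 2.71, 2.68, 3.04, 2.74 and 1.20, all still called.

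Tnf was high enough to be measured on all arrays. It read 2.49, 1.64 and 1.85 in Mreg + LPS, against 0.76, −0.18 and 0.56 in Mreg, and rose 3.06-fold (log2 1.61 ± 0.34 SE, adjusted p = 0.0002) without overlap. Il10, the main anti-inflammatory cytokine of macrophages, read −0.56, −1.16 and −0.46 in Mreg + LPS and −2.30, −2.38 and −1.70 in Mreg. It was higher on every slide (2.64-fold, log2 1.40 ± 0.55 SE, adjusted p = 0.03). That call was lost without Mreg + LPS array 1 or 3 and without Mreg array 1 or 2, at adjusted p values of 0.0788, 0.0855, 0.0781 and 0.0834.

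Chemokine genes rose in 11 of 24 cases and fell in 4, 11 and 3 at least 2-fold, against 12.9% and 14% of all genes. Beside Ccl5, Cxcl9, an IFN-γ-induced chemokine for T cells, read 5.94, 3.31 and 4.48 in Mreg + LPS, against 0.15, −3.02 and −2.96 in Mreg. It rose 91.7-fold (adjusted p = 8.5e-09), and array 1 was the highest of its group in both. Cxcl11, which acts on the same receptor, rose at least 23.4-fold. The monocyte chemokine Ccl7 read −1.32, 0.40 and −0.53 in Mreg + LPS, against 1.39, 1.87 and 1.74 in Mreg. It fell 4.45-fold (adjusted p = 0.0025). Ccl2, its neighbour in function, was looked at after its values were seen and read 4.71, 5.89 and 4.60 in Mreg + LPS, against 5.82, 6.19 and 5.95 in Mreg. The 2 groups overlapped (log2 −0.92 ± 0.32 SE, adjusted p = 0.015), and the call was lost without Mreg + LPS array 1 or 3 or Mreg array 2 (0.0827, 0.0973 and 0.0558).

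Nos2, the inducible nitric oxide synthase, read 2.33, 1.65 and 1.74 in Mreg + LPS, against −4.95, −5.61 and −5.94 in Mreg. The rise was 169.8-fold with 1 of 3 Mreg arrays above background (log2 7.41 ± 0.47 SE, adjusted p = 5.0e-13), and 4.73 log2 under normexp. Slc7a2, a transporter that brings in its substrate arginine, read 3.80, 4.15 and 3.06 in Mreg + LPS and −1.01, −0.40 and −2.005 in Mreg, and rose 28.1-fold. Arg1, the arginase that competes for arginine, read 2.65, 3.56 and 3.10 in Mreg + LPS, against 4.70, 6.24 and 5.47 in Mreg. It fell 5.16-fold (log2 −2.37 ± 0.40 SE, adjusted p = 1.2e-05) and stayed above background on all 3 LPS arrays. The mitochondrial arginase Arg2 rose at least 4.04-fold. Of the nitric oxide and arginine list 10 of 21 members rose and 5 fell, against 31.6% and 25.7% of all genes.

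Oxidase, itaconate and antimicrobial genes rose in 14 of 20 cases and fell in none, 9 at least 2-fold. Under quantile normalization 11 rose and 3 fell. Acod1, which makes the antimicrobial metabolite itaconate, read 8.09, 7.79 and 7.92 in Mreg + LPS, against 1.56, 0.93 and 0.72 in Mreg. It rose 117-fold (log2 6.87 ± 0.63 SE, adjusted p = 5.1e-10) with narrow groups. Lcn2, which withholds iron from bacteria by binding siderophores, read −0.29, −1.57 and 0.36 in Mreg + LPS and rose at least 34.9-fold. In the prostaglandin list 5 of 19 members rose and 5 fell, 2 and 3 of them at least 2-fold, against 12.9% and 14% of all genes. The 2 that rose at least 2-fold were Ptges and Ptgs2, which together make prostaglandin E2. Ptges read 4.44, 3.48 and 4.48 in Mreg + LPS and −1.44, −1.57 and −1.49 in Mreg (49.6-fold, adjusted p = 4.6e-14). Ptgs2 read 3.45, 1.49 and 1.71 in Mreg + LPS, against −1.59, −3.88 and −2.86 in Mreg (31.9-fold, adjusted p = 1.3e-06). Ptgs1, the constitutive isoform, was 3.75-fold lower (adjusted p = 8.8e-05), a call lost under normexp (0.173).

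Of 28 listed type I interferon stimulated genes 26 had a probe, and each of those 26 was tested. All 26 were at least 2-fold higher, against 12.9% of all genes, with a median of 3.87 log2. For each of them every Mreg + LPS array lay above every Mreg array, as was so for 33.1% of all genes. Under quantile normalization and in the authors' table all 26 rose and 25 reached 2-fold, and with no scaling 25 rose and 22 reached 2-fold. Isg20, an exonuclease that degrades viral RNA, read 2.56, 3.05 and 3.44 in Mreg + LPS, against −2.18, −2.45 and −2.04 in Mreg. It rose 37.7-fold (log2 5.24 ± 0.24 SE, adjusted p = 1.7e-15). Ifit1, which binds viral RNA that lacks the host's cap methylation, read 4.43, 4.96 and 5.13 in Mreg + LPS, against 0.18, −0.54 and 0.04 in Mreg, a 30.9-fold rise (adjusted p = 1.8e-10). Mx1, a GTPase that traps viral nucleocapsids, read 4.22, 5.32 and 5.03 in Mreg + LPS and −0.06, −0.23 and 0.05 in Mreg, and rose 30.6-fold. The smallest rise of the list was that of Eif2ak2, the RNA-activated kinase PKR, at 1.31 log2.

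**Figure D3:**
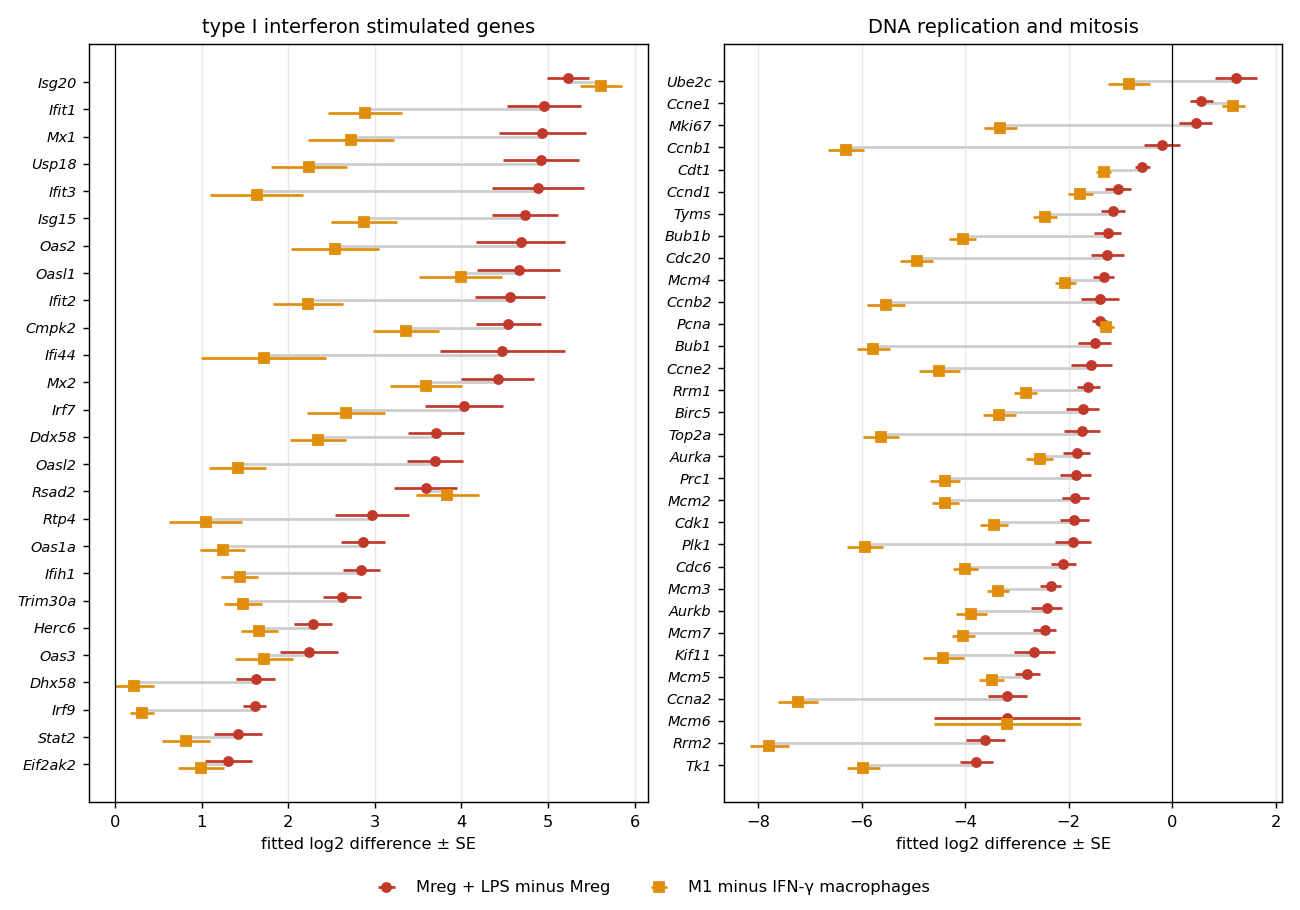
Fitted log2 difference with its SE for each member of 2 gene lists, type I interferon stimulated genes (left panel, 26 genes) and DNA replication and mitosis (right panel, 32 genes). Red circles are Mreg + LPS minus Mreg and orange squares are M1 minus IFN-γ macrophages. Every interferon stimulated gene lies right of 0 in Mreg, and most replication genes lie left of 0 in both cultures. The Mreg value lies right of the macrophage value for 24 of the 26 interferon genes and 29 of the 32 replication genes, of which 5 were below background in M1 or IFN-γ macrophages.

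IFN-γ was in both groups, and genes known as IFN-γ induced had no common shift. Of 26 tested, 9 rose and 4 fell, against 31.6% and 25.7% of all genes. The median of 0.37 log2 became −0.25 under quantile normalization, with 7 higher and 5 lower. Jak2, a kinase of the IFN-γ receptor, read 5.32, 5.28 and 5.22 in Mreg + LPS, against 2.51, 2.79 and 2.66 in Mreg (6.15-fold higher, adjusted p = 7.9e-15). Serpina3g, a protease inhibitor, rose 7.08-fold.

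Promoters are shown for 2 members of the interferon list and 2 of the NF-κB list, since most tested members of those lists rose, and for Saa3, 1 of the 3 largest rises among the cytokines, chemokines and effectors with an entry (Lcn2 and Il12b, the other two, hold none of the patterns below). Isg20, Ifit1, Traf1 and Nfkb2 were the members with the largest changes that had an entry in the RefSeq promoter table (GRCm38.p6), and showing them was decided after their values were seen. Each runs 5′ to 3′ across the gene's annotated start, with matches on either strand in capitals. The patterns searched were a GAAA pair (GAAA, any 2 bases, GAAA), which contains the core bound by interferon-activated factors, the STAT dimer pattern TTCNNNGAA, and the κB consensus, which allows alternatives at several bases. The AP-1 site TGANTCA was also searched. The last was the TATA box, as TATAAA. Mx1, Nos2 and Ccl5 are named only.
Ifit1 (chr19:34640639-34640938, plus strand): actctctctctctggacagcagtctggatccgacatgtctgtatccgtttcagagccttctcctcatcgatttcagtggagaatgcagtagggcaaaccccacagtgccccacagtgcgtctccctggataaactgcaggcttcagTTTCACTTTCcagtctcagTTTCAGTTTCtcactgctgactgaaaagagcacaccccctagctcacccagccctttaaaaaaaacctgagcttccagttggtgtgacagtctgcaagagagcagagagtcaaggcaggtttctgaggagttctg
Isg20 (chr7:78913174-78913473, plus strand): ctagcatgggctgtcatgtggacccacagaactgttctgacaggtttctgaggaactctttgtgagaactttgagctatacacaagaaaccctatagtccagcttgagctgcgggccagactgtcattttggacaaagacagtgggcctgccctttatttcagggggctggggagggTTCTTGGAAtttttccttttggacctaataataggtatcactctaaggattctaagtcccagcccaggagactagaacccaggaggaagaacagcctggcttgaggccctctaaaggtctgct
Nfkb2 (chr19:46304487-46304786, plus strand): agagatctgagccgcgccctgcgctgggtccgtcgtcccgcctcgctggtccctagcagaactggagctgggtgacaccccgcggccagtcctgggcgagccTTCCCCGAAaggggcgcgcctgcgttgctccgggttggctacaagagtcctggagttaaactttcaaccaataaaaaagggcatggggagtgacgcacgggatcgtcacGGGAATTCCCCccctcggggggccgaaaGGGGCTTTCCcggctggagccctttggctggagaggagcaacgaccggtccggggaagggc
Traf1 (chr2:34961723-34962022, minus strand): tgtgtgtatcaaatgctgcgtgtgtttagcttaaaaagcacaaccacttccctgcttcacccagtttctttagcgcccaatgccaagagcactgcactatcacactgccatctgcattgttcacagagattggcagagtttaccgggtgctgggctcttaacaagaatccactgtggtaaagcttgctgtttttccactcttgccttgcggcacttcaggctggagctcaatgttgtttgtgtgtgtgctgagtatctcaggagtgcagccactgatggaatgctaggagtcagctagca
Saa3 (chr7:46715627-46715926, minus strand): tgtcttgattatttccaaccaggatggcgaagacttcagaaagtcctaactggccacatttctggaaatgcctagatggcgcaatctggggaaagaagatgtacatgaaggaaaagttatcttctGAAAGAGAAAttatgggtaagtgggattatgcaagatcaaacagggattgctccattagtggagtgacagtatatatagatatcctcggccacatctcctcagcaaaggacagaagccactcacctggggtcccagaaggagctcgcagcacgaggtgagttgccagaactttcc
Ifit1 holds the GAAA pair, read on the opposite strand, 104 and 85 bases before its start. Isg20 holds TTCNNNGAA 73 bases before its start. Nfkb2 holds overlapping κB matches 39 and 38 bases before its start, another at 11 bases, and TTCNNNGAA at 148 bases. Traf1 holds none of the 5 patterns in this window, and Saa3 holds the GAAA pair at 125 bases. The GAAA pair was found in 11 of 20 promoters of the interferon list that had an entry (55%), in 5.82% of 1528 promoters of genes at least 2-fold higher, in 2.25% of 1641 promoters of genes at least 2-fold lower and in 3.49% of all 27025 promoters. The κB consensus was found in 5 of 13 promoters of the NF-κB list (38.5%), in 12.6% of the higher genes, in 8.78% of the lower genes and in 8.18% of all. Among the 11545 promoters of genes tested here, the shares were 3.12% for the GAAA pair and 9.71% for the κB consensus. These are matches of letters, and no binding was measured.

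Genes that present peptide on MHC class I rose in 14 of 18 cases and fell in none, 9 at least 2-fold (median 1.02). Under quantile normalization 10 rose and 2 fell, with 1 at least 2-fold. Tapbpl, a peptide editor, rose 2.96-fold, H2-M3, which presents formylated bacterial peptides, 2.52-fold, and Psme2, a proteasome activator subunit, 2.35-fold (adjusted p at or below 3.5e-08 in each). Class II presentation showed 10 of 16 members higher and 1 lower, and 5 higher and 3 lower under quantile normalization. Cd74, the invariant chain, read 6.76, 4.11 and 5.32 in Mreg + LPS, against 5.04, 2.54 and 3.29 in Mreg. The groups overlapped, though each LPS array stood above the Mreg array of its slide (3.4-fold, log2 1.77 ± 0.59 SE, adjusted p = 0.012). The class II chain H2-Eb1, chosen after its values were seen, read 5.31, 3.18 and 3.77 in Mreg + LPS and 3.52, 2.19 and 2.19 in Mreg (log2 1.45 ± 0.60 SE, adjusted p = 0.039). H2-Aa and H2-Ab1, chosen likewise, differed by log2 1.26 ± 0.53 SE and 1.29 ± 0.51 SE (adjusted p = 0.043 and 0.033). All 4 calls were lost without Mreg + LPS array 1 (adjusted p = 0.135 for Cd74 and 0.271, 0.298 and 0.248 for H2-Eb1, H2-Aa and H2-Ab1) or Mreg array 2 (0.10, 0.123, 0.139 and 0.133), and under quantile normalization. Those of the 3 chains were also lost without Mreg array 3 (0.131, 0.165 and 0.109), and that of H2-Aa without Mreg + LPS array 3 (0.0527). The summed level of dendritic cell markers, cells rich in class II, was 22.1 to 45.2 in Mreg + LPS and 27.3 to 61 in Mreg, and its part in these values was not tested. Ciita, the master activator of class II genes, read 2.19, −1.62 and −0.97 in Mreg + LPS, against 3.66, 2.10 and 2.73 in Mreg. It was 7.79-fold lower (adjusted p = 0.00039), with LPS array 1 above Mreg array 2, and was missed in a fit of those groups alone (0.0549).

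Ligands that stimulate or restrain T cells rose in 16 of 30 cases, 15 at least 2-fold, and fell in 3. Cd40, through which T cells license antigen-presenting cells, read 7.09, 6.03 and 5.74 in Mreg + LPS, against −0.23, −1.01 and −0.77 in Mreg. It rose 124-fold (log2 6.96 ± 0.28 SE, adjusted p = 2.1e-16). Cd274, the inhibitory ligand PD-L1, read 8.57, 8.32 and 8.37 in Mreg + LPS and 6.19, 6.45 and 6.17 in Mreg, and rose 4.44-fold (adjusted p = 8.8e-11). Tnfsf15, a costimulatory TNF-family ligand, rose at least 22.8-fold and the self-ligand Slamf1 at least 18.1-fold. Ido1, the tryptophan-degrading enzyme tied to T cell restraint, read −2.97, −5.50 and −5.45 in Mreg + LPS, against −4.04, −7.60 and −4.27 in Mreg, with 2 arrays of each group above background. Its difference was not called (log2 0.66 ± 0.74 SE, adjusted p = 0.46), and its arrays overlapped.

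DNA replication and mitosis genes fell in 27 of 32 cases, 26 at least 2-fold, and rose in 2 (median −1.74). The median lay between −2.37 and −1.48 over the 6 scalings and background corrections tried. Tk1, thymidine kinase of the S phase, read −2.57, −2.89 and −2.72 in Mreg + LPS, against 1.56, 0.62 and 1.01 in Mreg. It fell 13.8-fold (log2 −3.79 ± 0.32 SE, adjusted p = 9.8e-11) without overlap. Rrm2, the regulated subunit of ribonucleotide reductase, read −2.99, −2.57 and −2.96 in Mreg + LPS and 1.26, 0.40 and 0.66 in Mreg, and fell 12.2-fold. Ccna2, cyclin A2, read −2.52, −2.09 and −2.53 in Mreg + LPS and 1.37, 0.24 and 0.78 in Mreg, and fell 9.08-fold (adjusted p = 7.2e-08). Mitotic genes were not all lower. Ccnb1, cyclin B1, read −1.53, −1.16 and −1.76 in Mreg + LPS and −1.01, −1.42 and −1.46 in Mreg, which overlap (log2 −0.19 ± 0.35 SE, adjusted p = 0.66). Averaging all its probes gave −1.08 log2 (adjusted p = 0.00934). E2f7, a repressor of E2F targets, was at least 10.2-fold lower.

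Cholesterol and fatty acid synthesis genes fell in 15 of 30 cases, 10 at least 2-fold, and rose in 5. Elovl6, a fatty acid elongase, read −6.54, −6.78 and −7.46 in Mreg + LPS, all below background, against −1.70, −1.99 and −1.73 in Mreg, and was at least 9.94-fold lower. Stard4, a sterol carrier, fell 10.7-fold with 2 of 3 LPS arrays above background. Insig1, which holds the sterol sensor SCAP in the endoplasmic reticulum, went the other way, at 0.93, 0.25 and 0.11 in Mreg + LPS and −2.47, −2.87 and −2.60 in Mreg (8.44-fold higher, adjusted p = 3.0e-12). Glycolysis and hypoxia genes rose in 12 of 29 cases and fell in 6, with a median of 0.15 log2, and under quantile normalization 8 rose and 14 fell (median −0.41). Pfkfb3, which makes the activator of phosphofructokinase, read 6.87, 6.95 and 7.29 in Mreg + LPS, against 3.59, 3.79 and 3.69 in Mreg. It rose 10.2-fold (adjusted p = 6.8e-16). Vegfa, the vascular growth factor, rose 4.6-fold and Adm, adrenomedullin, 7.21-fold. TCA cycle and respiratory chain genes had 14 of 30 higher and 5 lower, 2 higher and 14 lower under quantile normalization, and 1 change of at least 2-fold, the fall of Idh3a, a subunit of isocitrate dehydrogenase (2.33-fold).

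Among the largest falls, Egr1, an immediate-early transcription factor, read −3.11, −3.39 and −2.87 in Mreg + LPS, against 2.31, 1.76 and 1.44 in Mreg. It fell 31.2-fold (log2 −4.96 ± 0.36 SE, adjusted p = 6.6e-12). Txnip, which curbs glucose uptake and binds thioredoxin, read −0.24, −0.06 and −0.19 in Mreg + LPS, against 4.92, 4.99 and 4.49 in Mreg, and fell 31.2-fold (adjusted p = 6.1e-15). In both genes the arrays of a group lay within 1 unit of each other. Gcnt1, which branches O-linked sugars on cell surface proteins, read −2.38, −1.01 and −1.12 in Mreg + LPS and 3.84, 3.51 and 3.83 in Mreg (37.5-fold lower). Notch4, a Notch receptor, read −4.52, −4.59 and −5.19 in Mreg + LPS and 1.68, −0.38 and 0.93 in Mreg (45.6-fold lower). The anion transporter Slco2b1 fell 67.2-fold with 1 of 3 LPS arrays above background. Dgkg, a diacylglycerol kinase, Lrig1, an inhibitor of receptor tyrosine kinases, and Mboat1, a lysophospholipid acyltransferase, were below background on every LPS array and at least 10.9-fold, 12.4-fold and 7.69-fold lower.

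Whether LPS acted alike in the culture without human serum was tested by the difference between the response of Mreg and that of IFN-γ macrophages, which share no arrays. M1 against IFN-γ macrophages had 8972 calls (51%), 4766 higher (27.1%) and 4206 lower (23.9%), with 2044 higher and 6366 lower when nothing was scaled. Of genes called in both cultures, 5641 of 6390 (88.3%) moved the same way. The 6390 were 63.4% of the calls in Mreg and 71.2% of those in the macrophages. The difference itself was called for 6153 genes (35%), more positive in Mreg for 3307 (18.8%) and more negative for 2846 (16.2%), and with no scaling for 1679 and 3473. Among these 6153 were 1011 genes that rose in Mreg with no call in macrophages, 404 that rose in Mreg and fell in macrophages, and 345 that fell in Mreg and rose in macrophages. Differences of at least 2-fold were called positive for 9.47% and negative for 8.92% of genes. M1 and IFN-γ macrophages never shared a slide with each other or with the Mreg arrays. In the macrophages LPS and slide therefore cannot be told apart. In the difference, culture, M-CSF dose, human serum and slide cannot be told apart.

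**Figure D4:**
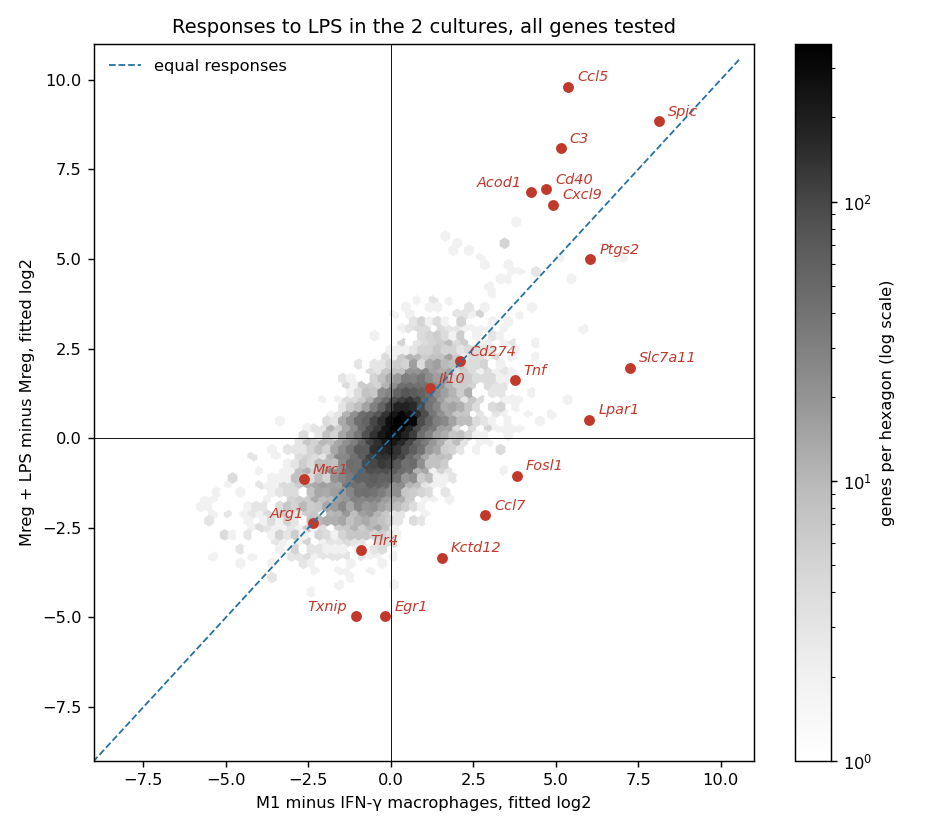
Fitted log2 difference of Mreg + LPS minus Mreg (vertical axis) against that of M1 minus IFN-γ macrophages (horizontal axis) for 17585 genes, with darker hexagons holding more genes on a log scale, some of the named genes in red and equal responses on the dashed line. Most genes lie along one rising band. Ccl5, C3 and Cd40 lie above the line, and Slc7a11, Lpar1, Ccl7, Kctd12 and Fosl1 lie below it.

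Interferon stimulated genes rose in 23 of 26 cases in the macrophages (median 1.97 log2), and the difference was called positive for 16 and negative for none, against 18.8% and 16.2% of all genes. The levels without LPS also differed between the cultures. All 26 had a lower mean in Mreg than in IFN-γ macrophages (median difference −1.67 log2), whereas with LPS 9 were higher in Mreg + LPS than in M1 (median difference −0.29). These differences of levels are descriptions across slides and were not tested. Ifit1 averaged 4.84 ± 0.37 SD in Mreg + LPS and −0.11 ± 0.38 SD in Mreg, and 5.43 ± 0.22 SD in M1 and 2.54 ± 0.07 SD in IFN-γ macrophages (n = 3 each). Its response was larger in Mreg by 2.06 ± 0.60 SE log2 (adjusted p = 0.0088). Ccl5 had the same shape, with 9.89 ± 0.14 SD in Mreg + LPS and 0.09 ± 0.99 SD in Mreg, against 9.59 ± 0.04 SD in M1 and 4.20 ± 0.78 SD in IFN-γ macrophages (n = 3 each). The difference of its responses was 4.42 ± 1.06 SE log2 (adjusted p = 0.0017).

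Cytokines pointed the other way, with 3 differences positive and 8 negative among 22, and 19 of the 22 had a lower mean in Mreg + LPS than in M1 (median difference −1.27 log2). Without LPS 6 of the 22 had a higher mean in Mreg than in IFN-γ macrophages (median difference −0.36), and neither was tested. Tnf averaged 1.99 ± 0.44 SD in Mreg + LPS and 0.38 ± 0.50 SD in Mreg, and 6.60 ± 0.10 SD in M1 and 2.84 ± 0.39 SD in IFN-γ macrophages (n = 3 each). The rise was smaller in Mreg, with a difference of responses of −2.14 ± 0.48 SE log2 (adjusted p = 0.0009). Il6 averaged −3.34 ± 0.59 SD in Mreg + LPS and 2.76 ± 0.80 SD in M1 (n = 3 each), and was below background in Mreg. Feedback inhibitors rose in 15 of 22 cases in macrophages, and 12 differences were negative and 1 positive. Socs1 and Dusp2, lower with LPS in Mreg, rose by 1.25 and 1.04 log2 in macrophages (adjusted p = 0.0061 and 0.0021), and their differences were −2.34 ± 0.52 SE and −3.23 ± 0.38 SE log2 (adjusted p = 0.00089 and 3.1e-07).

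Of 660 list members tested, 10 fell in Mreg and rose in macrophages with the difference called, and 7 did the opposite, against 345 and 404 of all 17585 genes. Ccl7 was among the 10, with 2.85 log2 in macrophages and a difference of −5.005 ± 0.82 SE log2 (adjusted p = 2.8e-05), as were Ccl2, Tirap and Nlrp3, an inflammasome sensor chosen after its values were seen, with differences of −4.04, −2.10 and −2.32 log2. The fall of Nlrp3 in Mreg (log2 −1.26 ± 0.20 SE, adjusted p = 5.9e-06) was missed under normexp (0.10). H2-Aa and H2-Eb1 were among the 7, with −1.48 and −1.60 log2 in macrophages and differences of 2.74 ± 0.74 SE and 3.05 ± 0.84 SE log2 (adjusted p = 0.0049 and 0.0056). In all, class II genes had 10 positive differences and no negative one among 16.

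DNA replication genes fell in 29 of 32 cases in macrophages with a median of −3.94 log2 (−3.56 with the 5 genes below background in 1 group set at their bound), and 26 differences were positive and none negative. Tk1 averaged −2.72 ± 0.16 SD in Mreg + LPS and 1.06 ± 0.47 SD in Mreg, and −4.45 ± 0.18 SD in M1 and 1.52 ± 0.12 SD in IFN-γ macrophages (n = 3 each). Its fall was smaller in Mreg, with a difference of 2.18 ± 0.45 SE log2 (adjusted p = 0.00038). With LPS, 31 of the 32 genes had a higher mean in Mreg + LPS than in M1 (median difference 1.30 log2, not tested). Ccnb1, Ska1, Myh10, Nusap1, Rnf144b and Iqgap3 were named for a positive difference among genes well above background on all arrays of at least 3 of the 4 groups, and are given in no order of size. Of these Ccnb1, Ska1 and Nusap1 act on the mitotic spindle or its entry. All 6 were below background on every M1 array, so the size of the difference is not given, and M1 was at least 24.5, 33.3, 21.6, 44.9, 9.15 and 18.4-fold lower than IFN-γ macrophages. In Mreg they were above background with and without LPS, with log2 responses of −0.19, −1.17, 0.54, −0.22, 0.95 and −1.07, those of Ska1, Rnf144b and Iqgap3 called (adjusted p = 0.0057, 0.0023 and 0.022). The call of Iqgap3 was lost without Mreg + LPS array 1 (0.13), without Mreg array 1 or 3 (0.0842 and 0.0604) and under normexp (0.0539).

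Oxidative and metal stress genes rose in 14 of 26 cases in Mreg and in 19 in macrophages, and 14 differences were negative and 4 positive. Under quantile normalization 8 rose and 5 fell in Mreg, and the median of 0.67 log2 became 0.10. Slc7a11, the cystine importer that feeds glutathione, read −0.90, 0.61 and −0.69 in Mreg + LPS, against −2.79, −1.44 and −2.62 in Mreg. It rose 3.9-fold there and 153-fold in macrophages (difference −5.30 ± 0.70 SE log2, adjusted p = 1.7e-06). Ddit3, the stress factor CHOP, read 5.29, 4.50 and 4.88 in Mreg + LPS and 1.70, 1.79 and 1.75 in Mreg, an 8.82-fold rise, with no call in macrophages (0.64 ± 0.28 SE log2, adjusted p = 0.06). Its difference was 2.50 ± 0.40 SE log2 (adjusted p = 1.8e-05). The receptor of lysophosphatidic acid Lpar1, the potassium channel tetramerisation protein Kctd12 and the AP-1 member Fosl1 had responses of 0.51, −3.33 and −1.04 log2 in Mreg, against 6.01, 1.54 and 3.81 log2 in macrophages. The response of Lpar1 in Mreg was not called (adjusted p = 0.38), and was called in the fit of the compared groups with the replicate block (0.0333). That of Fosl1 was lost without Mreg + LPS array 3 or Mreg array 2 (0.0604 and 0.0522). Egr1, which fell 31.2-fold in Mreg, had no call in macrophages (−0.17 ± 0.36 SE log2, adjusted p = 0.73), with a difference of −4.80 ± 0.51 SE log2 (adjusted p = 6.7e-08). Car2, carbonic anhydrase, was below background in IFN-γ macrophages and rose there at least 62.2-fold, against log2 1.55 ± 0.77 SE in Mreg (adjusted p = 0.088). That response was called in the fit of the compared groups with the replicate block (0.0233), with the slide as a random block (0.0292) and without Mreg + LPS array 3 or Mreg array 2 (0.027 and 0.012).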

How the data were processed

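RNA of mouse monocyte-derived cells was hybridised to 36 1-colour Agilent arrays, 3 for each of 12 groups, and 0.5 µg of total RNA per sample was labelled, per the labels' protocols. The intensities used here are the deposited background-corrected processed signals of each spot, made by the authors with Feature Extraction 10.5.1.1 (protocol GE1_105_Jan09), per the file headers, with probe positions on mm8 (NCBI36). The authors' deposited series table holds log2 values. It correlated with the scanner values at 0.9974 or more on every array, lowest on Mreg + LPS array 1. Its column medians lie at 4.33 to 4.38. The table was used as an alternative, with its normalization not given in the sources used here.

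Each array's log2 processed signal was centred on its 75th percentile. Control and outlier spots were left out, repeated spots averaged, probes kept if well above background on 3 or more arrays (26460 of 41174), and the brightest probe taken per gene. Of all probes, 24496 were named by accession, 8620 by symbol through the mouse gene table and 8058 keep the file's name. Limma 3.58.1 (R 4.3.3) was fitted to all 36 arrays by group, with Benjamini-Hochberg adjustment over 17585 genes, and adjusted p values in the text are limma's. Genes were named by a rule, which took the 10 largest rises and falls among called genes whose groups did not overlap. It also took up to 3 called genes per list with at least a 2-fold change. In both cases the brighter group had to be well above background on all 3 arrays. Further, 15 genes were always named, as were the 6 most positive and 6 most negative called differences. Some genes the rule names are not reported here. Members and lists were chosen with earlier results of these data known. On simulated data with 26506 features, 57% of 100 genes changed 2-fold and 82% of 100 changed 4-fold were recovered in the LPS comparison of Mreg, with 6 false calls. Only those genes were changed there, with independent normal noise, whereas 57.3% of genes were called in the real comparison. The adjusted p depends on the share of genes changed, so these rates do not carry over to the real arrays.

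Samples of the same series number share a slide in Mreg, and their deviations from the group means correlated at 0.302, 0.435 and 0.298. In the macrophages, whose 2 groups lie on different slides, the correlations were 0.235, 0.105 and 0.225. No label says what the number marks, so a shared slide, scan day or source of cells cannot be told apart. Mreg + LPS and Mreg of series 1 were scanned on another day than those of series 2 and 3. Alternatives were normexp, quantile normalization, other filters, the mean of probes, blocks for replicate, slide and scan day, fewer samples in the fit, the authors' table, and each array left out. The number of arrays limits the precision. Python 3.11.15 made tables and figures.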

Additional observations from a re-analysis of the deposited data

Results flagged for a closer look

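Groups of 3 arrays were not tested for outlying samples. The LPS response differed between Mreg and IFN-γ macrophages, by limma's test of the difference, in 47 named genes measured on all 12 arrays. Of these differences 29 were positive and 18 negative. Some of these genes were named for the size of this difference or after their values were seen, so the counts describe the choice of genes. Of all 12429 genes measured on all 12 arrays, 5214 had a called difference. All values are the log2 response of Mreg minus that of IFN-γ macrophages.

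Among signalling, cytokine and effector genes, Ccl5 differed by 4.42, C3 by 2.94, Acod1 by 2.62, Tlr7 by 2.40, Gadd45b by 1.91 and Cd40 by 2.25. Negative differences were found for Tlr4 (−2.23), Tnf (−2.14), Ccl7 (−5.005), Ccl2 (−4.04), Tirap (−2.10), Socs1 (−2.34), Dusp2 (−3.23), Nlrp3 (−2.32), Fosl1 (−4.86) and Egr1 (−4.80). Among interferon and cell death genes, all positive, Ifit1 differed by 2.06, Mx1 by 2.21, Jak2 by 0.58, Zbp1 by 1.42, Casp4 by 1.28 and Fas by 1.05. Among antigen presentation genes, Cd74 differed by 3.01, H2-Eb1 by 3.05, H2-Aa by 2.74, H2-Ab1 by 2.46, Psme2 by 0.55 and Tapbpl by 0.47.

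Among metabolic and lysosomal genes, Slc2a6 differed by 1.97, Gcnt1 by 1.44, Insig1 by 2.05, Angptl4 by 2.13, Pfkfb3 by 1.23, Gla by 0.95, Gusb by −1.32, Txnip by −3.91 and Slc7a11 by −5.30. Vegfa differed by 1.67, Tk1 by 2.18 and Ddit3 by 2.50. Of markers and surface proteins, Clec9a differed by 2.53, Pecam1 by 2.18, Batf3 by −1.46, Mmp14 by −2.17, Vwf by −2.25, Kctd12 by −4.87 and Lpar1 by −5.50.

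Several of these differences lost their call with 1 array left out. That of Acod1 did so without Mreg array 3 or IFN-γ macrophage array 3 (adjusted p = 0.0521 and 0.0656), that of Zbp1 without Mreg array 2 (0.0547) and that of Jak2 without Mreg array 1 (0.0518). That of Batf3 was lost without Mreg + LPS array 2, Mreg array 1, M1 array 1 or IFN-γ macrophage array 3 (0.0641 to 0.0945). That of Psme2 was lost without Mreg + LPS array 1, Mreg array 2, M1 array 3 or IFN-γ macrophage array 1 (0.0675 to 0.0909). That of Tapbpl was lost in 7 of 12 such fits, without Mreg + LPS array 1, Mreg array 2 or 3, M1 array 1 or 3, or IFN-γ macrophage array 2 or 3 (0.0606 to 0.162). Under quantile normalization the differences of Tapbpl, Jak2 and Zbp1 were not called (0.327, 0.228 and 0.0572). When each gene's probes were averaged, the differences of Fas, Jak2 and Gla were 0.27, 0.41 and 0.90 log2. None of these 3 was then called (adjusted p = 0.538, 0.254 and 0.063). Under normexp the differences of Angptl4 (0.26, adjusted p = 0.864), Slc2a6 (0.74, adjusted p = 0.327), Pecam1 (adjusted p = 0.15), Psme2 (0.172), Tapbpl (0.107) and Gcnt1 (0.0536) were not called.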

How the results depend on the processing

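The LPS response of Mreg had 7173 to 12109 calls over all settings, against 10082. With 1 array left out in turn there were 9098 to 9778 calls in Mreg, 7954 to 8321 in IFN-γ macrophages and 5584 to 6152 for the difference. The counts of Mreg, IFN-γ macrophages and the difference were 10806, 9683 and 7013 with the series number as a replicate block, 10992, 9000 and 6708 with the slide as a random block, and 10507, 9392 and 6677 with the scan day as a block. The replicate block changed 1 call among the named responses of Mreg, that of Mrc1 (log2 −1.15, adjusted p = 0.077 without and 0.0456 with it). With only the compared groups they were 7934, 9593 and 5439. Normexp left 3898 calls for the difference, against 6153, and no filter on dim probes gave 13638 calls in IFN-γ macrophages, against 8972, with more genes tested. Median scaling, no scaling and series 2 and 3 alone were chosen after seeing the data. They gave 10216, 9750 and 8592 calls in Mreg.

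Over named genes and settings, 3594 values kept direction and call, 117 lost a call, 13 gained one and 7 changed sign. The naming rule mostly required a call, and 111 of its 118 genes were called in Mreg. These counts therefore describe the choice of genes. None of those that changed sign was called: Myh10 read −0.20 with the mean of all probes and −0.091 with no scaling, and Lpar1 −0.12 with no scaling. With 1 array left out Ido1 lay between −0.49 and 1.29, Myh10 between −0.052 and 1.05 and Nusap1 between −0.47 and 0.015. Ccnb1 was called as lower with the mean of its probes (−1.08). The causes of these changes were not tested. Dim genes have little signal over background, and normexp was run with an offset of 50 added to every spot. That offset shrinks the log2 differences of dim genes by construction (Hamp 4.05 under normexp, against 8.66).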

Other observations

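Markers of alternative activation, the program set by IL-4, had 1 of 21 tested members higher and 6 lower, the 6 at least 2-fold. Over all genes 31.6% were higher, 25.7% lower and 14% at least 2-fold lower. The lectin gene Clec10a read 2.48, 2.26 and 2.77 in Mreg + LPS, against 4.98, 4.57 and 5.66 in Mreg, and fell 5.94-fold (adjusted p = 1.4e-06). Mrc1, the mannose receptor, read −0.79, 0.89 and −0.16 in Mreg + LPS and 0.29, 1.69 and 1.40 in Mreg, which overlap, and was not called (log2 −1.15 ± 0.55 SE, adjusted p = 0.077). Cd163, the haemoglobin scavenger receptor, was at least 2.47-fold lower and below background on every Mreg + LPS array, and under normexp it was not called (log2 −0.22, adjusted p = 0.646). Scavenger and efferocytosis receptors had 6 of 26 higher and 8 lower (31.6% and 25.7% of all genes), and 4 and 8 under quantile normalization. Olr1, a receptor of oxidised lipoprotein, rose at least 5.16-fold.

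Inflammasome and cell death genes had 11 of 23 higher and 5 lower, against 31.6% and 25.7% of all genes. The death receptor Fas read 4.96, 4.20 and 4.56 in Mreg + LPS, against 0.75, 0.14 and 0.51 in Mreg, and rose 17.3-fold (adjusted p = 6.6e-16). Casp4, the mouse caspase-11 that binds LPS inside the cell, read 7.34, 6.87 and 6.85 in Mreg + LPS, against 4.07, 4.08 and 3.84 in Mreg. It rose 8.12-fold (adjusted p = 5.4e-14). The nucleic acid sensor Zbp1 rose 6.16-fold. Receptors for chemokines, growth factors and Fc had 11 of 31 higher and 8 lower, close to the shares over all genes (31.6% and 25.7%), and 11 and 13 under quantile normalization. Ccr7, which guides cells to lymph nodes, rose at least 16.3-fold, and Ccr2, the receptor of Ccl2, was at least 8.79-fold lower. Fpr1, a receptor of formylated bacterial peptides, read 1.25, 0.78 and 2.18 in Mreg + LPS and −2.53, −3.39 and −1.64 in Mreg, and rose 15.1-fold.

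Lysosomal genes had 19 of 32 higher and 1 lower, and 7 higher and 6 lower under quantile normalization, with few 2-fold changes. Gla, α-galactosidase, rose 3.77-fold and the protease gene Ctsz 2.99-fold, whereas Gusb, β-glucuronidase, fell 4.18-fold. Lipid efflux genes had 8 of 24 higher and 6 lower, also close to those shares, and 5 and 8 under quantile normalization, with the median at 0.13 and −0.32 log2. Among them were Nr1h3, the nuclear receptor LXRα (5.24-fold higher), Fabp4, a fatty acid carrier (4.7-fold higher), and Angptl4, an inhibitor of lipoprotein lipase (10-fold lower). Matrix protease genes had 4 of 21 higher and 4 lower, against 31.6% and 25.7% of all genes. Adamts4, which cuts aggrecan and versican, rose at least 7.27-fold. Vcan, the gene of versican, listed here as a monocyte marker, read 1.34, 1.03 and 0.80 in Mreg + LPS, against −4.11, −5.56 and −5.29 in Mreg with 2 of 3 arrays above background, and rose 65.8-fold (adjusted p = 1.8e-10).

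Of macrophage markers, Mertk, a receptor for dying cells, rose 3.08-fold. Of 9 dendritic cell markers tested 4 were higher, Ccr7 among them, and 2 lower, Batf3 (4.41-fold) and Clec9a (4.14-fold). None of 11 neutrophil markers tested was called.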
